A study of Mus musculus with 19 samples.

Results

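The genes described here are the nuclear-encoded subunits of the oxidative phosphorylation machinery in primary mouse sarcomas. They were chosen by symbol (the Nduf, Sdh, Uqcr, Cox4 to Cox8 and Atp5 families, with pseudogene symbols left out) and by a mean level above 0 over 19 tumors. Of 92 matching rows, 6 had a pseudogene symbol and 5 had a mean at or below 0, which left 81 genes of 48795 in the table. By name, 38 belong to complex I, 4 to complex II, 6 to complex III, 16 to complex IV and 17 to complex V. A level is the log2 of the upper-quartile normalized FPKM (a fragment count scaled for gene length and depth, so levels can be compared between genes) plus 0.1. The lowest possible level is -3.32.

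RNA was sequenced from 19 untreated tumors, 1 library each, of which 11 grew in *Rag2-/-* mice and 8 in *Rag2+/-* littermates. All mice, 6 to 10 weeks old, were given Adeno-sgp53-Cas9, an adenovirus for transient expression of Cas9 and a guide against *Trp53*, in the gastrocnemius muscle and then 300 µg of the carcinogen MCA (3-methylcholanthrene) at 6 µg/µl in sesame oil. Tumors were taken at about 70 to 150 mm3. *Rag2-/-* mice cannot rearrange antigen receptor genes and lack mature T and B lymphocytes, so the design compares tumors that developed with and without adaptive immunity. The study used both sexes, and the sex of each mouse and the strain of the *Rag2* mice were not used here. Bulk tumor RNA was measured, so RNA of host muscle, fat, vessels and leukocytes can be part of every value.

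Oxidative phosphorylation takes place in the inner mitochondrial membrane. Complexes I to IV pass electrons from NADH and succinate to oxygen and, except for complex II, pump protons, and complex V (ATP synthase) uses the proton gradient to make ATP. Most subunits are encoded in the nucleus and a smaller set in mitochondrial DNA. Skeletal muscle is rich in mitochondria, and several complex IV subunits exist as a form used in most tissues and a restricted form. The restricted form is found mainly, but not only, in heart and skeletal muscle.

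The depth estimated from the steps between low values was 24.7 to 33.6 M fragments on genes in 18 tumors and 5.23 M in the *Rag2-/-* tumor S41. No member was at the lowest level in any tumor, and 10 members had fewer than 100 estimated fragments in at least 1 tumor. The labels were checked by lymphocyte genes: the mean level of 10 T cell genes was -2.48 to -1.54 in *Rag2-/-* and -0.04 to 2.55 in *Rag2+/-* libraries, with no overlap, and *Cd3e* was at the lowest level in every *Rag2-/-* tumor. *Rag2* itself was at -2.05 to 0.36 in *Rag2-/-* and -2.33 to -0.57 in *Rag2+/-* tumors, so its RNA did not separate the genotypes, and *Trp53* RNA was present in every tumor (3.47 to 6.35). A mean over 25 skeletal muscle genes, all of them tested and none at the lowest level in any tumor, stood apart in 5 tumors. It was 10.49 to 11.58 in the *Rag2-/-* tumor S51 and the *Rag2+/-* tumors S52, S56, S59 and S60, and 3.07 to 8.51 in the other 14. S51 and S56, with S41 and S46, are not among the 15 tumors shown in the study's own comparison.

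Levels of the members ran from 0.74 for *Cox6b2* to 9.09 for *Atp5b*, the catalytic beta subunit of ATP synthase, with a median of 6.40, and 73 of 81 were above 5. The median over all 12826 genes with a mean above 0, the genes tested throughout, was 3.26. These levels chose the members and are given as a description. Just inside the threshold were *Cox6b2* (0.74), a testis form of a complex IV subunit, *Cox4i2* (0.79), a form best known from lung, and *Atp5s* (1.50), a coupling factor of ATP synthase. Just outside it, *Ndufa11b*, *Ndufs6b*, *Cox6c2*, *Cox7b2* and *Cox8c* were at -3.32 in all 19 libraries. The genes with the highest level in each complex were *Ndufa4* (7.68), *Sdhb* (6.71), *Uqcrh* (7.43), *Cox4i1* (8.70) and *Atp5b*. *Ndufa4* is named as a complex I gene and is also known as a subunit of complex IV. *Ndufb4* (5.14) and *Ndufb4c* (6.28) are near copies of each other, and *Ndufb4c*, although its symbol passed the rule, is annotated as a processed pseudogene, so it is counted among the members by its name alone and how reads were divided between them is uncertain.

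Member levels varied between tumors more than those of most genes. The median SD over the 19 tumors was 0.86 for the members and 0.52 for all genes tested, and the median span from lowest to highest tumor was 2.96 log2 units. The *Rag2+/-* tumor S56 held the highest value for 77 of the 81 genes. The smallest span was 1.38, for *Cox7a2l*, and the largest was 10.4, for the muscle form *Cox7a1*.

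The complex IV isoforms gave the widest contrast. Stretches of 150 bases just before the RefSeq starts of the muscle and common forms of 2 pairs are shown because these genes differed most in how they varied (build GRCm38.p6; *Cox7a1* at chr7:30184021-30184170, plus strand; *Cox7a2* at chr9:79759854-79760003, minus strand; *Cox8b* at chr7:140900447-140900596, minus strand; *Cox8a* at chr19:7217617-7217766, minus strand). Each reads 5′ to 3′ along the gene, and none of the letters is in capitals because none of the motifs searched lies wholly in these stretches. The longer window of *Cox8a*, used for the counts below, held a match to the GABPA site CCGGAAG that is not wholly in its stretch.
Cox7a1: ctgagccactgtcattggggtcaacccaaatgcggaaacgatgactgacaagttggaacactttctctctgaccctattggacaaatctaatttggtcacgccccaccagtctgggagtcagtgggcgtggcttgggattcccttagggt
Cox7a2: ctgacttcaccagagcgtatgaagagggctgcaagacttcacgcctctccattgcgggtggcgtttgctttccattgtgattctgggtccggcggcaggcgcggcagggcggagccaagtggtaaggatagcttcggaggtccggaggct
Cox8b: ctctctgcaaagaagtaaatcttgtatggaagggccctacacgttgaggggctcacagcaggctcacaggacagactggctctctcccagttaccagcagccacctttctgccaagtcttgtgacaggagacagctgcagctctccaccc
Cox8a: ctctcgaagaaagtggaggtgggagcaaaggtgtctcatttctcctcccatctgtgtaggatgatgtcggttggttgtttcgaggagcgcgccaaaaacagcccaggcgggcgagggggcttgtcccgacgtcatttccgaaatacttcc
The windows of the muscle forms held 7 (*Cox7a1*) and 2 (*Cox8b*) CpG dinucleotides in 300 bases (250 before and 50 after the start), and those of *Cox7a2* and *Cox8a* held 20 and 19. The median over member windows was 19. Low counts were also found outside the muscle forms, with 5 for *Cox7b* and 8 for *Ndufc2*.

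*Cox6a2*, the heart and muscle form of subunit VIa, was at 2.54 to 9.24 (median 5.42) in the *Rag2-/-* group and at 4.25 to 10.64 (median 7.73) in the *Rag2+/-* group. *Cox6a1*, the form of most other tissues, stayed between 7.20 and 8.56 (median 7.77) and between 6.98 and 7.98 (median 7.37). The groups overlapped for both genes, and *Cox6a2* was lowest in S48 and highest in S56. *Cox6a2* made up 1.50% of the summed FPKM of the pair in S48 and 92.0% in S56. *Cox7a1*, the muscle form of subunit VIIa, ran from -1.10 in S48 to 9.31 in S56, with group medians of 4.05 and 5.53, while *Cox7a2* ran from 4.40 to 7.25. *Cox8b*, the muscle form of subunit VIII, ran from 0.49 to 9.74 in the same 2 tumors, with medians of 4.88 and 6.39, while *Cox8a* ran from 6.88 to 8.42. From the lowest to the highest tumor the 3 muscle forms spanned 8.10 to 10.4 log2 units and their common forms 1.54 to 2.85.

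The other 3 pairs did not have this shape. *Cox4i2* was a small share of its pair with *Cox4i1*, between 0.012% and 1.18% of summed FPKM. It lay at -2.39 in S51, where an estimated 1 fragment was counted, and between -0.55 and 1.94 in all other tumors. *Cox6b2* lay between -1.47 and 1.97, and *Cox6b1* between 6.70 and 9.18. *Ndufa4l2*, a paralog of *Ndufa4* known as a hypoxia target, ran from 1.85 to 5.72 (median 4.07) in the *Rag2-/-* group and from 2.53 to 4.42 (median 3.16) in the *Rag2+/-* group. It was highest in the *Rag2-/-* tumor S42, where it made up 30.9% of its pair.

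**Figure D1:**
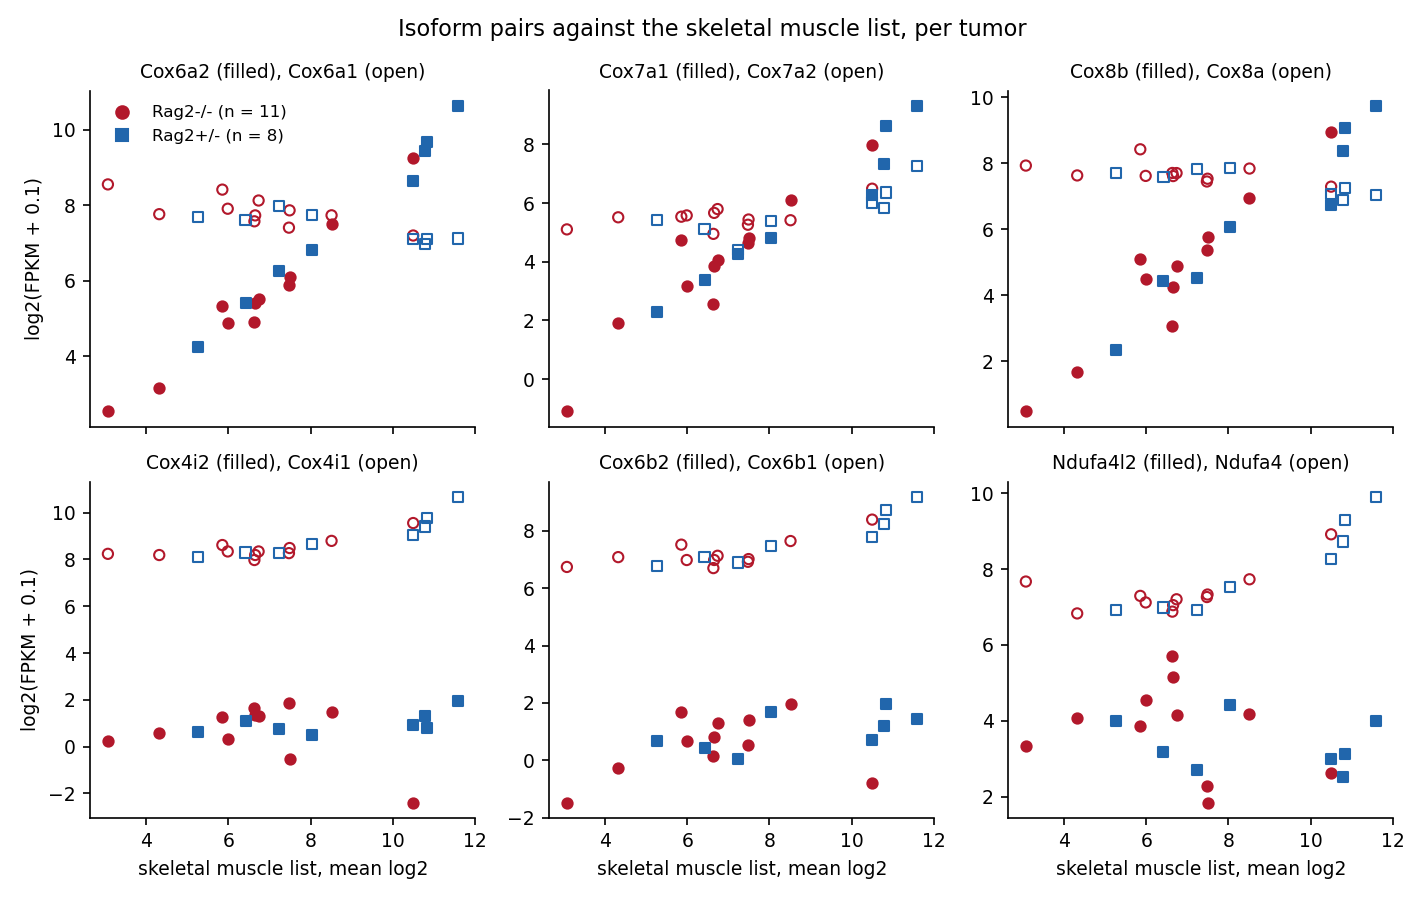
Level, log2(FPKM + 0.1), of 6 isoform pairs in each tumor (vertical axis) against the mean level of 25 skeletal muscle genes (horizontal axis), with *Rag2-/-* tumors as red circles and *Rag2+/-* tumors as blue squares. Filled symbols are the restricted form and open symbols the common form, and *Cox6a2*, *Cox7a1* and *Cox8b* climb across the panel while *Cox6a1* and *Cox8a* stay between 6.88 and 8.56.

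Each pair's log2 ratio, restricted minus common form, was compared between genotypes by a two-sided exact permutation test over all splits of the tumors, with Benjamini-Hochberg adjustment over the 6 pairs. For *Cox6a2* against *Cox6a1* it was -2.34 ± 2.11 (SD, n = 11) in *Rag2-/-* and 0.22 ± 2.61 (SD, n = 8) in *Rag2+/-* tumors, which differed by -2.56 (two-sided exact permutation p = 0.0313, adjusted p = 0.187). The differences were -1.69 for *Cox7a1* (exact permutation p = 0.0874), -2.07 for *Cox8b* (exact permutation p = 0.109) and 1.11 for *Ndufa4l2* (exact permutation p = 0.125), each with an adjusted p of 0.187. They were 0.23 for *Cox4i2* and 0.10 for *Cox6b2*, each with an adjusted permutation p of 0.832. The *Cox4i2* value was 0.62 in the 15 tumors of the study's comparison (exact permutation p = 0.143, adjusted p = 0.183), and with each tumor left out it was 0.087, without S42, to 0.65, without S51. None of the 6 ratios passed the threshold of 0.05 after adjustment.

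Because the 5 tumors rich in muscle RNA stood apart, the relation of the ratios to the muscle list was taken within the other 14, again for 6 ratios. For *Cox6a2* against *Cox6a1* Pearson's r was 0.989 and Spearman's rho was 0.956 (permutation p = 1e-05 for both, the smallest 100000 permutations can give, adjusted p = 3e-05 and 6e-05). For *Cox7a1* r was 0.932 and rho 0.890 (permutation p = 2e-05 and 0.00014, adjusted p = 4e-05 and 0.00028), and for *Cox8b* r was 0.941 and rho 0.881 (permutation p = 1e-05 and 8e-05, adjusted p = 3e-05 and 0.00024). Leaving out S48 and S43, whose list means lay farthest from the median, gave r of 0.970, 0.827 and 0.847. For *Cox6b2* r was 0.773 and rho 0.609 (permutation p = 0.00209 and 0.0238, adjusted p = 0.00313 and 0.0357) but r was 0.276 without these 2 tumors, so that relation rests on them. For *Cox4i2* r was 0.105 and rho 0.064 (permutation p = 0.717 and 0.83, adjusted p = 0.717 and 0.83), and for *Ndufa4l2* they were -0.120 and -0.305 (permutation p = 0.681 and 0.288, adjusted p = 0.717 and 0.345). Without S48 and S43 these r were -0.132 and -0.373. No r over all 19 tumors is given because they fall into these 2 sets. As values, the *Ndufa4l2* ratio was -6.30 to -5.26 in the 5 muscle-rich tumors and -5.48 to -1.16 in the other 14, the *Cox4i2* ratio -11.95 to -8.09 and -9.03 to -6.34, and the *Cox6b2* ratio -9.19 to -6.77 and -8.21 to -5.61.

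Averaged over their members, all 5 complexes had a lower mean in *Rag2-/-* than in *Rag2+/-* tumors. Complex I was at 5.70 ± 0.54 and 6.38 ± 1.03, complex II at 6.05 ± 0.42 and 6.65 ± 0.97, complex III at 6.57 ± 0.58 and 7.34 ± 1.10, complex IV at 5.81 ± 0.61 and 6.49 ± 0.98, and complex V at 6.72 ± 0.48 and 7.40 ± 0.98 (SD, n = 11 and 8). The groups overlapped in every complex. Over all 81 genes the mean was 5.57 to 7.38 (median 5.91) in the *Rag2-/-* group and 5.61 to 8.31 (median 6.52) in the *Rag2+/-* group. It was 6.80 to 8.31 in the 5 muscle-rich tumors and 5.57 to 6.52 in the other 14, without overlap. The members took 1.32% to 2.59% of all summed FPKM in *Rag2-/-* and 1.38% to 3.99% in *Rag2+/-* tumors.

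**Figure D2:**
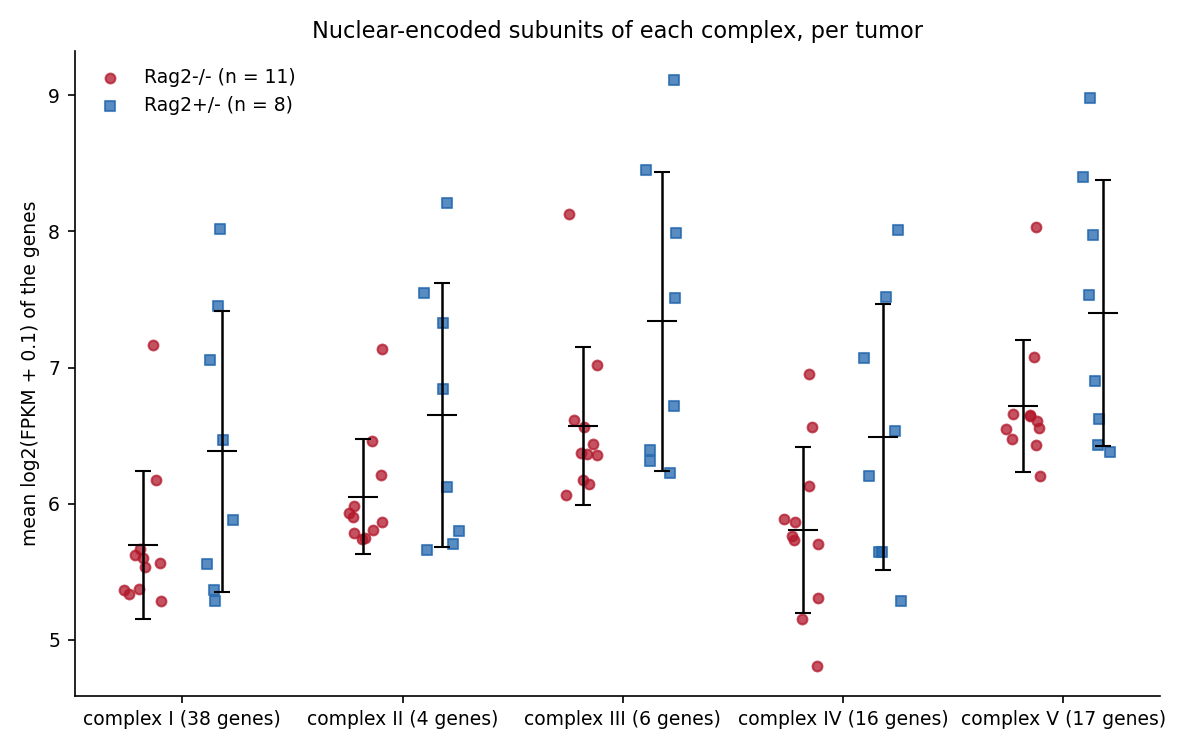
Mean level, log2(FPKM + 0.1), of the genes of each complex in each tumor (vertical axis), with *Rag2-/-* tumors as red circles (n = 11) and *Rag2+/-* tumors as blue squares (n = 8). Black lines are the mean and SD of each group, and in each complex the *Rag2-/-* mean is the lower one and the groups overlap.

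Gene by gene, 78 members had a lower mean in *Rag2-/-* tumors (76 with FPKM scaled by estimated depth) and 3 a higher one, but none passed the test. With limma 0 of 81 had an adjusted p under 0.05 (lowest adjusted p = 0.30), where 4 of all 12826 genes, 0.0312%, did. At an unadjusted p under 0.05, 30 members were lower in *Rag2-/-* and 1, *Cox6a1*, was higher, against 9.56% lower and 6.74% higher among all genes tested. The median difference, *Rag2-/-* minus *Rag2+/-*, was -0.69 for the members and 0.06 for all genes. With each tumor left out in turn it was -0.86 to -0.44 for the members, nearest to 0 without S56. By complex, 14 of 38, 2 of 4, 4 of 6, 1 of 16 and 9 of 17 were lower at an unadjusted p under 0.05. No member had groups that did not overlap, and 0.0156% of all genes did. In bulk tumor RNA, fewer cells of a type and less RNA per cell cannot be told apart.

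The 25 muscle genes moved with these differences, and their part in them was not tested. Their mean was 6.66 ± 1.98 (SD, n = 11) in *Rag2-/-* and 8.83 ± 2.39 (SD, n = 8) in *Rag2+/-* tumors (exact permutation p = 0.0457), and all 25 were lower in *Rag2-/-*, 20 of them at an unadjusted p under 0.05. The list was chosen with earlier results of these data known, which these p-values do not account for. The list's difference was -2.18 in all tumors and -2.08 in the 15 tumors of the study's comparison, where it did not pass (exact permutation p = 0.0695). It also did not pass without any 1 of S41, S42, S43, S44, S45, S46, S48, S52, S56, S59 or S60 (exact permutation p = 0.0564 to 0.0990). In the 14 other tumors, 0 members were lower at an unadjusted p under 0.05 by limma (2.01% of all genes) and the median difference was 0.01. In those 15 tumors 30 members were lower (11.1% of all genes), with a median of -0.62. The count of 30 in all tumors was 1 without S56 or S59 (3.38% and 3.81% of all genes), 2 without S60 (4.18%), and 7 without S52 (5.55%). It was 9 to 15 without S41, S42, S43, S44, S45, S48, S49 or S50 (6.5% to 7.93% of all genes), and 52 to 70 without S51, S53, S55 or S58 (13.2% to 16.6%).

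*Atp5b*, the gene with the highest level, was at 8.45 to 9.95 (median 8.65) in the *Rag2-/-* group and at 8.62 to 11.12 (median 9.20) in the *Rag2+/-* group. *Uqcrc1*, a core protein of complex III, was at 6.21 to 8.45 (median 6.44) and at 6.47 to 9.80 (median 7.28). *Sdhb*, the iron-sulfur subunit of complex II, was at 6.02 to 7.59 (median 6.28) and at 6.05 to 8.82 (median 6.89). In each of them the groups overlapped, and the median of the *Rag2+/-* group lay within the *Rag2-/-* range.

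Among catalytic and core subunits the differences had similar sizes. The 75 kDa and flavin subunits of complex I, *Ndufs1* and *Ndufv1*, differed by -0.82 ± 0.38 and -0.81 ± 0.39 (fitted difference and its SE, as in the rest of this paragraph). The 4 succinate dehydrogenase genes of complex II, which also belongs to the tricarboxylic acid cycle, differed by -0.57 ± 0.40 (*Sdha*), -0.71 ± 0.33 (*Sdhb*), -0.63 ± 0.28 (*Sdhc*) and -0.48 ± 0.28 (*Sdhd*). In complex III *Uqcrc1* and the Rieske iron-sulfur protein *Uqcrfs1* differed by -0.96 ± 0.43 and -0.92 ± 0.43. *Cox5a* and *Cox5b* of complex IV differed by -0.81 ± 0.42 and -0.69 ± 0.38, and the alpha and beta subunits of ATP synthase, *Atp5a1* and *Atp5b*, by -0.76 ± 0.35 and -0.75 ± 0.31. The largest negative differences per complex were those of *Ndufb5* (-1.14 ± 0.49), *Sdhb*, *Uqcrc1*, *Cox6a2* (-2.14 ± 0.88) and *Atp5g1* (-1.05 ± 0.48), which encodes the c subunit of the ATP synthase rotor. The 3 genes with a higher mean in *Rag2-/-* tumors were *Ndufa4l2* (0.43 ± 0.44, and 0.24 without S42), *Cox6a1* (0.43 ± 0.18) and *Cox8a* (0.30 ± 0.16). The other muscle forms *Cox7a1* and *Cox8b* differed by -1.89 ± 1.05 and -1.77 ± 1.06, while *Cox7a2*, *Cox4i1*, *Cox6b1* and *Ndufa4* differed by -0.21 ± 0.28, -0.58 ± 0.29, -0.58 ± 0.30 and -0.68 ± 0.38, values that were above 0 for these 4 in the 14 other tumors. Those with the least negative difference in complexes II, III and V were *Sdhd*, *Uqcrh* (-0.54 ± 0.32) and *Atp5k* (-0.51 ± 0.38).

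With the muscle list as a covariate in the limma fit, the differences between genotypes were smaller in size for 79 of 81 members, all but *Cox4i2* and *Cox7a2*. None had an adjusted or an unadjusted p under 0.05, against 0.0156% and 4.15% of all genes tested. The median was -0.04 for the members and -0.02 for all genes. With each tumor left out the members' median was -0.14, without S55, to 0.039, without S50. It was -0.13 in the 15 tumors, 0.062 in the 14 and -0.33 with a list of slow fiber genes as the covariate. The largest remaining values were 0.58 for *Cox8b*, -0.46 for *Cox4i2*, 0.43 for *Cox7a1* and -0.43 for *Atp5g2*, a second c subunit gene. *Ndufa4l2* was at 0.19 and *Cox6a1* at 0.12.

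**Figure D3:**
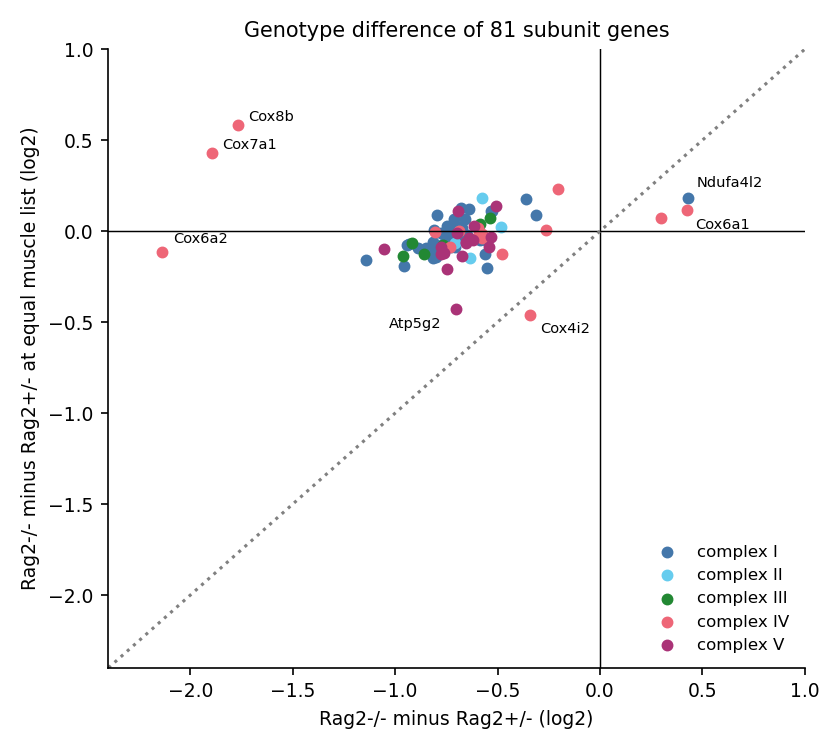
Fitted difference *Rag2-/-* minus *Rag2+/-* in log2 units for 81 genes, without (horizontal axis) and with (vertical axis) the muscle list as a covariate, with points coloured by complex and a dotted line where both are equal. Most points lie left of 0 on the horizontal axis and within 0.25 of 0 on the vertical axis, and 3 lie right of 0 on the horizontal axis.

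Across tumors, 76 of 81 members rose with the muscle list at an adjusted p under 0.05 by limma with genotype as a covariate, where 24.7% of all genes did. *Cox6a1* and *Cox8a* fell with it (30.4% of all genes), and *Ndufa4l2*, *Cox4i2* and *Cox6b2* passed in neither direction. The median slope was 0.30 log2 units per log2 unit of the list for the members and -0.02 for all genes. By complex 37 of 38, 4 of 4, 6 of 6, 12 of 16 and 17 of 17 rose. In the 15 tumors of the study's comparison 74 rose (19.6% of all genes) and the same 2 fell (25.5%), with *Cox6b2* added (adjusted p = 0.0066) and *Cox7a2*, *Atp5g2* and *Ndufc2* not passing by limma (adjusted p = 0.054, 0.188 and 0.114). These calls depended on the muscle-rich tumors. In the other 14, 4 members rose by the same test (3.21% of all genes), namely *Cox6a2*, *Cox7a1*, *Cox8b* and *Cox6b2*, and 0 fell (0.249%), with a median of 0.10. There, 32 members had an unadjusted p under 0.05, against 15.3% of all genes. *Cox6b2* had 4.20 estimated fragments in S48, and its slope over all tumors was 0.16, and 0.075 without S48.

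The muscle forms had by far the steepest slopes. *Cox8b* rose by 1.08 ± 0.08 (slope and SE, as below), *Cox7a1* by 1.07 ± 0.08 and *Cox6a2* by 0.93 ± 0.04. In the 14 other tumors the slopes of these muscle forms were 1.15, 1.12 and 0.88. The genes of the muscle list had a median slope of 1.02, which is set by construction because the list is their own mean. All 78 other members were below 0.5. The common form *Cox6a1* fell by 0.14 per unit and *Cox8a* by 0.10, while *Cox7a2* rose by 0.20 ± 0.05. The common forms *Cox4i1*, *Cox6b1* and *Ndufa4*, whose partners are not muscle forms, rose by 0.25 ± 0.04, 0.26 ± 0.04 and 0.32 ± 0.06. *Cox7a2l*, a relative of *Cox7a2* that helps to join complexes III and IV, had the shallowest slope among those that rose (0.12 ± 0.03).

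In the other complexes the slopes lay close together. In complex I they reached 0.45 ± 0.06 for *Ndufb5*, and only *Ndufa4l2* (-0.11 ± 0.10) was below 0. *Ndufs1* rose by 0.33 ± 0.05 and *Ndufv1* by 0.35 ± 0.05. Complex II ran from 0.22 ± 0.05 for the membrane anchor *Sdhc* to 0.35 ± 0.05 for the flavoprotein *Sdha*, and complex III from 0.28 ± 0.04 for *Uqcrh* to 0.39 ± 0.05 for *Uqcrfs1*. Complex V ran from 0.13 ± 0.05 for *Atp5g2* to 0.44 ± 0.06 for *Atp5g1*, although both encode the same mature c subunit, and *Atp5a1* and *Atp5b* were at 0.30 ± 0.05 and 0.25 ± 0.05. With a list of 9 slow fiber genes in place of the muscle list, 0 members had an adjusted p under 0.05 by limma, where 0.164% of all genes rose and 0.0234% fell, and the median slope was 0.22. At an unadjusted p under 0.05 39 members passed, against 15.7% of all genes.

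**Figure D4:**
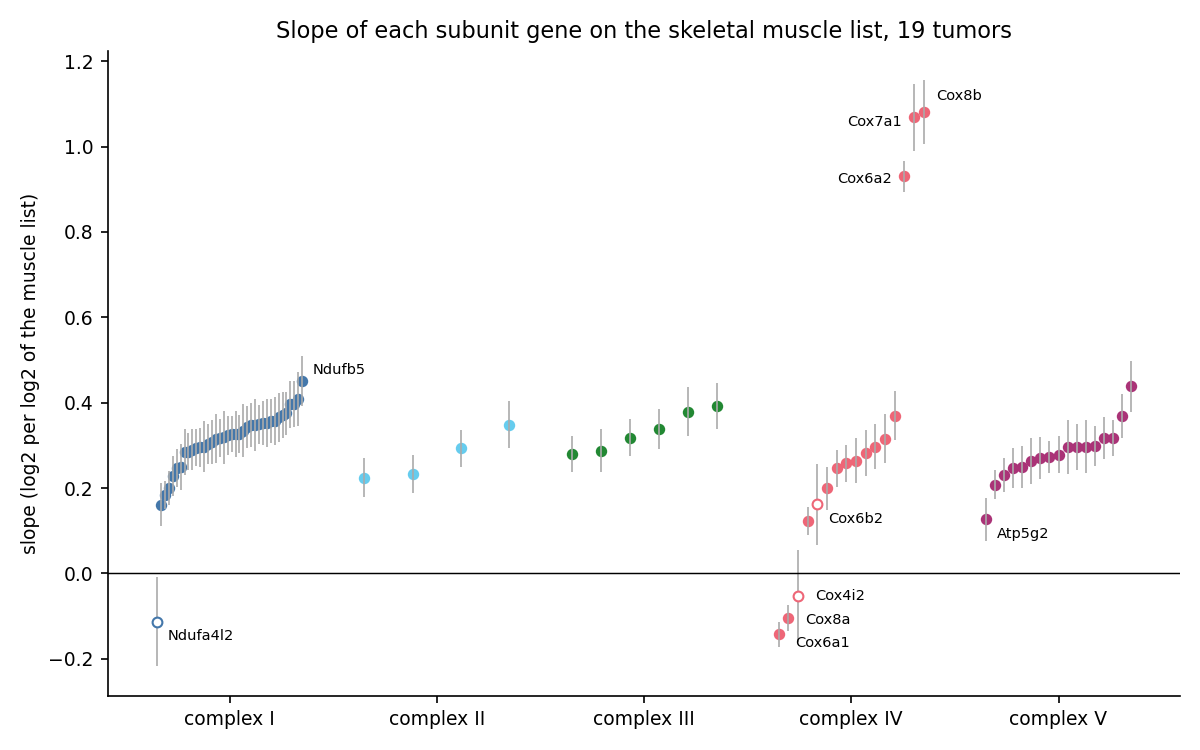
Fitted slope of each subunit gene on the muscle list, in log2 units per log2 unit (vertical axis), sorted within each complex, over 19 tumors with genotype as a covariate. Bars are the SE, filled points had an adjusted p under 0.05 by limma and open points did not, and *Cox8b*, *Cox7a1* and *Cox6a2* lie near 1 while *Cox6a1* and *Cox8a* lie below 0.

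The slopes were steeper in *Rag2+/-* than in *Rag2-/-* tumors for 77 of 81 members, with medians of 0.40 and 0.20. As a difference between genotypes, 0 members had an adjusted p under 0.05 by limma (0% of all genes), and 46 had an unadjusted p under 0.05 with the steeper slope in *Rag2+/-*, against 7.01% of all genes in that direction. Only 1 *Rag2-/-* tumor, S51, had a list mean above 10. Without it 47 members had an adjusted p under 0.05 with the steeper slope in *Rag2+/-* (5.93% of all genes), and in the 15 tumors of the study's comparison 21 did (4.27% of all genes with the steeper slope in *Rag2+/-*). In the 14 tumors without the muscle-rich ones 0 did by limma (0% of all genes), 2 had an unadjusted p under 0.05 with the steeper slope in *Rag2+/-* (2.01% of all genes), and the median slope difference, *Rag2-/-* minus *Rag2+/-*, went from -0.20 to -0.07. The count of 46 was 3 without S48 (3.02% of all genes), 10 without S56 (3.54%), and 25 to 28 without S43, S55 or S59 (5.43% to 5.79%).

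The other parts of the respiratory chain went the same way. All 13 subunits encoded in mitochondrial DNA rose with the muscle list, with slopes of 0.34 to 0.54 and a median of 0.44, against 1 of 13 in the 14 other tumors. They took 2.09% to 6.60% of summed FPKM in *Rag2-/-* and 2.15% to 17.1% in *Rag2+/-* tumors. In the comparison of genotypes, 0 of 13 had an adjusted p under 0.05 and 13 of 13 were lower in *Rag2-/-* at an unadjusted p under 0.05 (9.56% of all genes), with a median of -1.28. That count was 4 or 5 without S52, S56, S59 or S60, 4 with quantile normalization (median -0.50) and 1 in the 14 other tumors (median -0.08). The largest values were those of *mt-Atp6* (-1.92 ± 0.52, SE) and *mt-Co3* (-1.45 ± 0.54, SE). Outside the naming rule, 6 of 6 further nuclear genes rose with the list, among them *Ndufab1* (0.28), an acyl carrier protein of complex I, and the electron carrier *Cycs* (0.28). Of 46 assembly factors 38 rose and 1, *Sco2*, fell, with a median of 0.19, and *Ecsit* and *Uqcc1* rose by 0.41 and 0.36. In the other 14 tumors 0 genes of both lists passed the test.

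Genes that feed the chain also rose with the muscle list, where 24.7% of all genes rose and 30.4% fell. In the tricarboxylic acid cycle 15 of 17 rose (median 0.30, with *Idh3a* at 0.39), and in fatty acid oxidation 15 of 16 (median 0.27). The muscle form of carnitine palmitoyltransferase, *Cpt1b*, rose by 0.91 and *Acadvl* by 0.34. Among carriers and creatine kinases 6 of 8 rose and 1 fell, with the mitochondrial muscle creatine kinase *Ckmt2* at 1.07 and the ADP/ATP carrier *Slc25a4* at 0.54. In glycolysis 13 of 19 rose and 5 fell (median 0.24), with the muscle enzymes *Pgam2* at 1.08 and *Eno3* at 1.04. In the 14 other tumors 0, 1, 2 and 4 genes of these 4 lists rose, against 3.21% of all genes. Of 10 regulators of mitochondrial biogenesis 5 rose and 5 fell. *Esrra*, a nuclear receptor, rose by 0.40 and *Tfb2m*, a mitochondrial transcription factor, by 0.24, while *Nrf1* fell by 0.13 and *Gabpa* by 0.11. With FPKM scaled by estimated depth, which moved the median slope of all genes to -0.11, 2 regulators rose (14.2% of all genes) and 5 fell (48.1%).

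**Figure D5:**
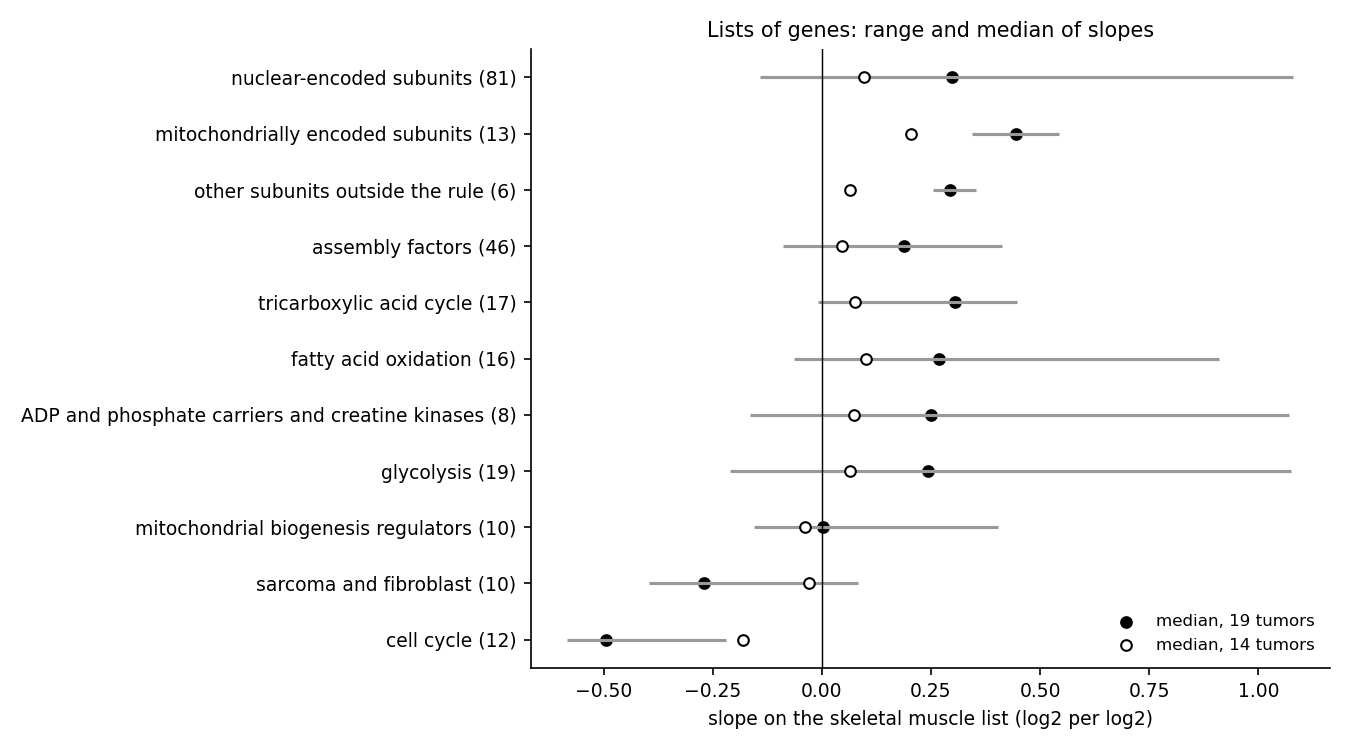
Slopes on the muscle list, in log2 units per log2 unit (horizontal axis), for 11 lists of genes, with the number tested in parentheses. Lines run from the lowest to the highest slope over 19 tumors, filled points are the median over 19 tumors and open points the median without the 5 muscle-rich tumors, and open points lie nearer to 0 than filled points in each list except the regulators.

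Some lists of markers of other cells also went with the muscle list, and their part in the member values was not tested. All 12 cell cycle genes fell with the muscle list (median slope -0.49, with *Aurkb* at -0.57 and *Bub1* at -0.49), where 30.4% of all genes fell. So did 9 of 10 sarcoma and fibroblast genes (*Twist1* at -0.32, *Pdgfra* at -0.33, *Col1a2* at -0.29 and *Col3a1* at -0.19). In the 14 other tumors 1 and 0 genes of these lists fell, against 0.249% of all genes. The mean of the sarcoma and fibroblast list was 5.43 in S51 and 5.95 in S56, and 5.43 to 7.93 over all tumors. In the slow fiber list 5 of 8 tested genes rose (24.7% of all genes), with *Mb*, which stores oxygen, at 0.89 and *Myl3* at 0.73, and *Myl2* (0.42) and *Atp2a2* (-0.09) did not pass. In the 14 other tumors 1 slow fiber, 0 fat and 0 erythroid genes rose, against 3.21% of all genes. The fat list (6 genes, 4 tested) reached 8.40 in the *Rag2-/-* tumor S46, 6.03 in S47 and 5.80 in S51, and was -2.95 to 3.89 in the rest. *Cfd* rose with the muscle list by 1.03 and *Adipoq* (0.66) did not pass. The brown fat list was at -2.28 to -0.12, with 1 of 4 genes, *Dio2*, tested. In neither the macrophage (8 genes) nor the endothelial list (7 genes) did a gene pass, and *C1qa*, *C1qb*, *Mrc1* and *Fcgr1* had slopes of -0.07, -0.05, -0.15 and -0.02, and *Pecam1* and *Cdh5* 0.04 and -0.06. With FPKM scaled by estimated depth 4 of the macrophage and 2 of the endothelial genes fell, against 48.1% of all genes tested. Among 5 erythroid genes *Hbb-bt* rose by 0.31, and *Hbb-bs* (0.09), *Hba-a1* (0.19) and *Hba-a2* (0.18) did not pass.

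Of the lymphocyte lists, 3 of 10 T cell and 2 of 8 B and plasma cell genes had a mean above 0 and were tested, some only through their level in *Rag2+/-* tumors, so their values are a description of the label check. *Cd2*, a T cell adhesion receptor, was at -0.36 ± 0.63 (SD, n = 11) and 2.10 ± 1.23 (SD, n = 8), and *Igkc*, the kappa light chain of antibodies, at -3.02 ± 0.78 and 6.71 ± 1.70. The differences of *Lck* and *Cd79b* were -1.14 and 0.10.

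Promoter windows were matched for 65 members (70 windows) in the RefSeq table of 32851 windows, and 16 members, *Cox6a2* and *Cox4i1* among them, were not matched. Motifs of factors known for respiratory genes were searched on both strands and are described without a test. The NRF1 palindrome with 1 base free (N), GCGCNTGCGC, was in 25.7% of member windows, against 4.60% of all windows and 9.54% of those of other tested genes. Its exact form GCGCATGCGC, a subset of the former, was in 7.14%, 0.971% and 1.92%. The GABPA site CCGGAAG was in 21.4%, 8.86% and 17.0%, the estrogen-related receptor element AAGGTCA in 11.4%, 4.72% and 3.08%, and the YY1 site AAGATGG in 15.7%, 6.34% and 6.88%. The MEF2 site was in 0 of 70 member windows, against 3.19% and 1.90%. An NRF1 or GABPA match was found for 28 of the 65 genes. *Cox6a1*, whose level fell with the muscle list, held both in the 150 bases before its start (GRCm38.p6, chr5:115348959-115349108, minus strand), and *Atp5k* held the exact NRF1 form (chr5:108434400-108434549, minus strand). These 2 are shown as examples with matches in capitals, and both matches shown for *Cox6a1* read as the motif on the opposite strand. Their full windows held further matches that are not in the printed stretches. These were the exact NRF1 form for *Cox6a1*, and GABPA and estrogen-related receptor matches for *Atp5k*.
Cox6a1: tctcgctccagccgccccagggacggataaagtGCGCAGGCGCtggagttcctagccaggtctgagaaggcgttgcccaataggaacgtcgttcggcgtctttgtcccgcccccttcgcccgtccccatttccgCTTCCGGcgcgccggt
Atp5k: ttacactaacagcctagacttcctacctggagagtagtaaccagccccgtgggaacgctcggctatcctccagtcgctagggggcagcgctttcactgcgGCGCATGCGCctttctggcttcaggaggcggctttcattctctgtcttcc
A match says only that these letters lie in the window.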

How the data were processed

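RNA was extracted with a combined DNA and RNA kit, and libraries were sequenced as paired reads of 150 bases. The authors used the Omicsoft aligner with the mouse B38 build and Ensembl R86 gene models, per the study's methods, and deposited upper-quartile normalized FPKM as log2 values. The submitters' processing notes instead name Trimmomatic, STAR, HTSeq and the build mm10, and which of the 2 made the values is not settled here. The lowest value in every library showed that 0.1 had been added before the log2 was taken. No counts were used, so tests ran on the log2 scale with limma 3.58.1 in R 4.3.3 (moderated test with intensity trend, Benjamini-Hochberg adjustment over 12826 genes with a mean above 0, threshold 0.05). Differences on the log2(FPKM + 0.1) scale understate changes of low genes. Symbols were found for 48349 identifiers. The fit used all 19 tumors, and labels pair none of them. With 1 library per tumor, p-values measure the spread between tumors. Exact permutation tests, figures and sequences used Python 3.11.15, numpy 2.4.6, pandas 2.3.3, scipy 1.17.1 and matplotlib 3.10.9. Depth was estimated from low values, which were whole multiples of 1 fragment within 0.05 for 74.5% to 88.4% of those checked. The 25 muscle genes and the other lists, like the members, were chosen with earlier results of these data known. Genes named are both forms of each pair, core subunits, and in each complex or list the genes at the extremes of level, genotype difference or slope. *Nrf1*, *Gabpa*, *Sco2*, *Cd3e*, *Hbb-bt*, *Cox7a2l*, *Cox7b*, *Ndufc2*, *Ndufb4* and *Ndufb4c* were named after their values were seen. CpG counts and the 2 promoter examples were chosen after the sequences were seen. Scripts were tested on simulated data.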

Additional observations from a re-analysis of the deposited data

How the results depend on the processing

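No member passed an adjusted p under 0.05 between genotypes, with or without the muscle list, under any alternative run by limma (15 tumors of the study, other pseudocounts, level filters and scalings, no intensity trend, each tumor left out, and, both chosen after seeing the data, 14 tumors without the muscle-rich ones and FPKM scaled by estimated depth). The count of members lower at an unadjusted p (30, with 9.56% of all genes) was 0 in the 14 tumors (2.01%), 13 with the depth scaling (4.77%) and 1 to 70 with a tumor left out (3.38% to 16.6%). The count of higher members (1, with 6.74% of all genes) was 0 in the 15 tumors (11%) and in the 14 tumors (2.12%). It was 2 with quantile normalization (8.05%) and with the depth scaling (17.1%), and 0 to 2 with a tumor left out (3.77% to 15.8%). Rising slopes (76) numbered 0 with the slow fiber list (0.164% of all genes), 4 in the 14 tumors and 75 to 76 with a tumor left out, and falling slopes (2) numbered 0 in both of the first settings. The median slope of 0.30 was 0.24 in the 15 tumors, 0.25 with quantile normalization, 0.22 with the slow fiber list, 0.10 in the 14 tumors, 0.22 with the depth scaling and 0.27 to 0.35 with a tumor left out. Members whose slope differed between genotypes by adjusted p (0) numbered 21 in the 15 tumors and 0 to 47 with a tumor left out. The depth scaling moved the median genotype difference of all genes from 0.06 to 0.32 and of the members from -0.69 to -0.42, so members stayed below all genes by a like amount, and it raised the mean difference of *Cox7a2* and *Cox7a2l* above 0 in *Rag2-/-*. In the 14 tumors 48 of the 81 members had a higher mean in *Rag2-/-*, against 3 in all tumors. Among the 12 isoform genes, followed singly, reversed genotype differences were *Cox7a2* at 0.34 in the 14 tumors and 0.061 with the depth scaling (-0.395 to 0.013 with a tumor left out, above 0 without S56), *Cox4i1* at 0.013, *Cox6b1* at 0.017, *Ndufa4* at 0.15 and *Cox4i2* at 0.21 in the 14 tumors, and *Cox4i2* at 0.14 in the 15. The slope of *Cox4i2* reversed to 0.10 in the 15 tumors, 0.00958 with a pseudocount of 1, 0.083 with the slow fiber list and 0.14 in the 14 tumors, and was -0.10 to 0.14 with a tumor left out, above 0 without S51. The genotype difference in the ratio of *Cox6b2* to *Cox6b1* was -0.04 to 0.35 with a tumor left out, below 0 without S49 (-0.005) or S56 (-0.043). The cause of these changes was not tested. No paired analysis was possible because the labels pair no tumors. Depth limits *Cox4i2*, *Cox6b2*, *Cox7a1*, *Cox8b* and *Atp5s* most, with 1, 4.20, 4.90, 12.9 and 17.2 estimated fragments in their lowest tumor, and these estimates cover counting only.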
